A study of Mus musculus with 10 samples.

Results

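10 genes of the receptors for the mitogens EGF and FGF were read from the 48795 genes of the RNA-seq count table by their symbols. They were 4 members of the EGF receptor family (Egfr, Erbb2, Erbb3 and Erbb4), the receptors Fgfr1, Fgfr2 and Fgfr3, the kinase-less receptor Fgfrl1, the ligand Hbegf and the receptor inhibitor Errfi1. The cells were neural stem and progenitor cells (NSC/NPCs) from the subependymal zone, a germinal niche of the adult brain, taken from mice of 10 weeks and grown in culture. Proliferating neurospheres (PRO), which are floating aggregates of dividing cells, were collected at 3 days in vitro (DIV) in medium with 20 ng/ml EGF and 10 ng/ml FGF. Differentiating cells (DIFF) had been seeded at 40000 cells/cm2 on Matrigel for 2 days with FGF, the only mitogen named for that step, and were collected at 2 + 1 DIV, 24 h after mitogens had been replaced by 2% fetal bovine serum. The stages therefore differed in mitogen, serum and attachment together, and the contribution of each cannot be told apart.

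Wild type (WT) was sampled with 3 libraries per stage and Cdkn1b (p27KO), labelled as lacking the CDK inhibitor p27, with 2 per stage. The series describes the replicates as biological, without saying whether each came from another mouse. All 10 libraries were bulk cultures, so that fewer cells of a type and less RNA per cell cannot be told apart.

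EGF receptors and FGF receptors are receptor tyrosine kinases that pair upon ligand binding and signal through adaptors to Ras and the kinases of the ERK cascade. EGFR binds EGF and related ligands, whereas ERBB3 and ERBB4 bind neuregulins and ERBB2 serves as a partner without a ligand of its own. FGFs act on their receptors together with heparan sulfate, and both mitogens keep subependymal NSC/NPCs dividing in culture.

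The libraries held between 19190068 and 25291674 counts. Cdkn1b, the gene of p27, was read first as a check of the labels. It had 103, 105 and 112 CPM (the count scaled to a common library total) in WT neurospheres and 207, 205 and 209 CPM in WT at 2 + 1 DIV. The libraries labelled p27KO had 114 and 90.7 CPM in neurospheres and 140 and 137 CPM at 2 + 1 DIV, so that Cdkn1b counts were not lost, and which part of the gene the mutant allele lacks is not given in the sources used here. The free-text description of these 4 libraries also named WT cells. Xist, the RNA of the inactive X chromosome, was at 2260 to 3590 CPM in the 4 libraries labelled p27KO and at 1.16 to 2.57 CPM in the 6 WT libraries, and the Y-linked gene Ddx3y was at 0.045 to 0.124 and at 51.6 to 109 CPM. Genotype label and sex coincided in these libraries and cannot be told apart.

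Of the 10 genes, 9 passed the filter on low values, as did 12859 of all genes. Erbb3 did not, and it is given by its counts. A fold change is the fitted ratio of 2 groups on a log2 scale with its standard error (SE), and a gene was called at an adjusted p under 0.05 by the quasi-likelihood test of edgeR, with p-values adjusted after Benjamini and Hochberg over all genes tested.

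The starts of transcription of 4 of these genes are shown because their transcripts moved in different ways: Erbb4 and Fgfr2 rose at 2 + 1 DIV, Egfr was not called and Fgfrl1 fell. Each sequence holds the 250 bases before a RefSeq transcription start on GRCm38.p6, read 5′ to 3′ along the gene. The windows are chr1:69108060-69108309 on the minus strand for Erbb4, chr7:130266809-130267058 on the minus strand for Fgfr2, chr11:16751953-16752202 on the plus strand for Egfr and chr5:108693979-108694228 on the plus strand for Fgfrl1. Capitals mark matches to the GC box GGGCGG or its reverse complement.
Erbb4: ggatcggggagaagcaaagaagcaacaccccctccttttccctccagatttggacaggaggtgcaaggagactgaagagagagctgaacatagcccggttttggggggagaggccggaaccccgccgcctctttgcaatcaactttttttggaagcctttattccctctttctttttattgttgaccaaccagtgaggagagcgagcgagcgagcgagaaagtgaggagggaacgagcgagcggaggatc
Fgfr2: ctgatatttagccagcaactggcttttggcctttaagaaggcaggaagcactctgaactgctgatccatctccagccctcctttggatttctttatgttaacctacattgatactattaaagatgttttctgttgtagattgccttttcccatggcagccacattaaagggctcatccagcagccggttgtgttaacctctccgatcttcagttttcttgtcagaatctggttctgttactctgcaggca
Egfr: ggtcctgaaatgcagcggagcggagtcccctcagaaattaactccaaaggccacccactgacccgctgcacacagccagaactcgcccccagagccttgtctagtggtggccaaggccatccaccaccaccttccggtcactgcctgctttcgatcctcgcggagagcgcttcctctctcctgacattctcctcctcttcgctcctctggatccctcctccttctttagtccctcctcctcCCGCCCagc
Fgfrl1: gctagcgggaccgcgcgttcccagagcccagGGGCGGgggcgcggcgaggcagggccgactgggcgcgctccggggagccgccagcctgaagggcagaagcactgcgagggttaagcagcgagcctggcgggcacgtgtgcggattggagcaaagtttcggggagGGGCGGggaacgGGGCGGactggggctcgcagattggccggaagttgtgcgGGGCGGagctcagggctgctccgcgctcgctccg

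The windows of Erbb4 and Fgfr2 held no GC box, that of Egfr held 1 and that of Fgfrl1 held 4, none overlapping another. Of all 32851 RefSeq promoters of the table, 32.7% held at least 1 in the 250 bases before the start. The E-box CAGCTG, the E2F motif TTTGGCGC and the SOX motif ACAAAG, read on both strands, were in none of the 4 windows, against 13.0%, 0.417% and 16.5% of all promoters. CpG dinucleotides numbered 12 in Erbb4, 2 in Fgfr2, 11 in Egfr and 30 in Fgfrl1, beside a median of 6 over all promoters. The motifs were chosen after the expression values were known, and a match describes the letters only. RefSeq promoters were found for 7 of the 10 genes. Of those not printed, Erbb2 held no GC box in the part outside annotated exon, and Errfi1 held 0 and 2 overlapping ones before its 2 starts, with 1 SOX match before the first. Both windows of Fgfr3 lay in annotated exon and are not shown.

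Fgfr2 and Fgfr3 rose in WT at 2 + 1 DIV, 4.15-fold and 4.28-fold, whereas Fgfr1, the most abundant FGF receptor kinase gene of neurospheres, was not called. Fgfr1 (ENSMUSG00000031565, chr8:25513654-25575718, plus strand, GRCm38) had 208, 218 and 192 CPM in WT neurospheres and 197, 242 and 210 CPM at 2 + 1 DIV. With the p27KO label, values were 186 and 213 CPM in neurospheres and 231 and 187 CPM at 2 + 1 DIV. The stages overlapped in both genotypes. The log2 fold change was 0.06 in WT (SE 0.12, 95% interval -0.21 to 0.33) and 0.04 in the libraries labelled p27KO (SE 0.15, interval -0.29 to 0.37), with adjusted p of 0.659 and 0.827 in edgeR's quasi-likelihood test. Its exons share 164 bases with the antisense gene Gm16159, and whether counting used the strand is not given in the sources used here.

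Fgfr2 (ENSMUSG00000030849, chr7:130162451-133123350, minus strand) had 23.0, 20.3 and 16.9 CPM in WT neurospheres and 74.8, 89.5 and 86.9 CPM at 2 + 1 DIV. In p27KO-labelled libraries, the gene had 19.9 and 22.0 CPM in neurospheres and 84.3 and 93.7 CPM at 2 + 1 DIV. Each of the 5 libraries at 2 + 1 DIV was above each of the 5 neurosphere libraries. The fold change was 4.15 in WT (log2 2.05, SE 0.13, adjusted p = 7.4e-07) and 4.17 in the libraries labelled p27KO (log2 2.06, SE 0.16, adjusted p = 6.9e-06; edgeR's quasi-likelihood test). The annotated span includes a transcript that reads through to exons of Ctbp2, with which 314 exon bases are shared.

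Fgfr3 (ENSMUSG00000054252, chr5:33721674-33737068, plus strand) had 55.2, 55.5 and 35.4 CPM in WT neurospheres and 235, 213 and 180 CPM at 2 + 1 DIV. Neurospheres labelled p27KO had 23.6 and 30.2 CPM, and cells labelled p27KO had 164 and 151 CPM at 2 + 1 DIV. The stages did not overlap in either genotype, and replicate 3 was the lowest WT library at both stages. The fold change was 4.28 in WT (log2 2.10, SE 0.19, adjusted p = 8.4e-06) and 5.76 in the libraries labelled p27KO (log2 2.53, SE 0.24, adjusted p = 2.4e-05; edgeR's quasi-likelihood test). Its exons share 998 bases with G630022F23Rik, annotated on the opposite strand. Fgfr4, the remaining FGF receptor kinase, was at 0 CPM in all 5 neurosphere libraries and at most 0.198 CPM at 2 + 1 DIV, and did not pass the filter. Without the filter its WT stage change had adjusted p = 0.0528 in edgeR's quasi-likelihood test.

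**Figure D1:**
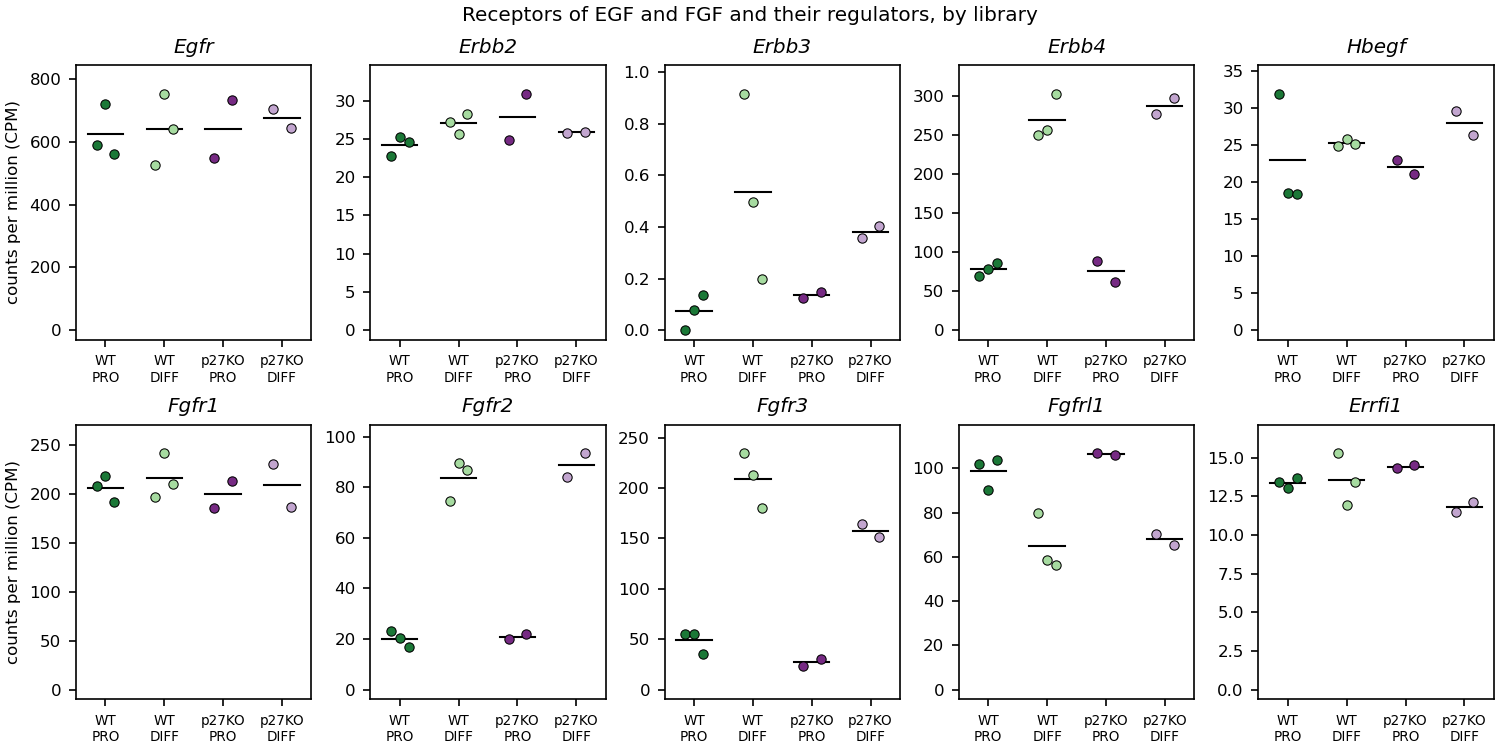
CPM (vertical axes, each from 0) of the 10 genes in WT and p27KO neurospheres (PRO) and cells at 2 + 1 DIV (DIFF), with 1 point per library and a line at the group mean (n = 3 in WT, n = 2 in p27KO). Erbb4, Fgfr2 and Fgfr3 are higher in every DIFF library than in any PRO library and Fgfrl1 is lower, whereas Egfr stays between 528 and 754 CPM in all libraries.

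Within the EGF receptor family, Erbb4 rose 3.43-fold in WT while Egfr and Erbb2 were not called. Egfr (ENSMUSG00000020122, chr11:16752203-16918158, plus strand) had 590, 720 and 562 CPM in WT neurospheres and 528, 754 and 642 CPM at 2 + 1 DIV. The libraries labelled p27KO had 549 and 733 CPM in neurospheres and 706 and 645 CPM at 2 + 1 DIV. The stages overlapped in both genotypes. The log2 fold change was 0.03 in WT (SE 0.17, 95% interval -0.34 to 0.40) and 0.05 in the libraries labelled p27KO (SE 0.20, interval -0.40 to 0.50), with adjusted p of 0.868 and 0.85 in edgeR's quasi-likelihood test. These intervals leave room for changes of up to 1.32-fold in WT and 1.42-fold in the libraries labelled p27KO.

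Erbb4, which encodes a neuregulin receptor (ENSMUSG00000062209, chr1:68032186-69108059, minus strand), had 69.3, 78.8 and 85.9 CPM in WT neurospheres and 250, 256 and 303 CPM at 2 + 1 DIV. With the p27KO label, values were 89.1 and 61.4 CPM in neurospheres and 277 and 298 CPM at 2 + 1 DIV. All libraries at 2 + 1 DIV exceeded all neurosphere libraries. The fold change was 3.43 in WT (log2 1.78, SE 0.14, adjusted p = 2.8e-06) and 3.76 in the libraries labelled p27KO (log2 1.91, SE 0.17, adjusted p = 1.5e-05; edgeR's quasi-likelihood test).

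Erbb2, which encodes the partner receptor without a ligand (ENSMUSG00000062312, chr11:98412470-98437716, plus strand), had 22.8, 25.2 and 24.6 CPM in WT neurospheres and 27.2, 25.6 and 28.3 CPM at 2 + 1 DIV. In p27KO-labelled libraries, the gene had 24.8 and 30.9 CPM in neurospheres and 25.8 and 25.9 CPM at 2 + 1 DIV. The WT stages did not overlap, and the difference was not called in either genotype. The log2 fold change was 0.15 in WT (SE 0.10, 95% interval -0.08 to 0.38, adjusted p = 0.227) and -0.13 in the libraries labelled p27KO (SE 0.13, interval -0.42 to 0.15, adjusted p = 0.396; edgeR's quasi-likelihood test).

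Erbb3, which encodes a neuregulin receptor with a weak kinase (ENSMUSG00000018166, chr10:128567523-128589652, minus strand), was close to absent. It had 0, 2 and 3 counts in WT neurospheres and 18, 12 and 5 counts at 2 + 1 DIV. The libraries labelled p27KO had 3 and 3 counts in neurospheres and 9 and 9 counts at 2 + 1 DIV. No library reached 1 CPM, and the highest was 0.916 CPM. Without a filter on low values, Erbb3 passed the threshold in WT (log2 fold change 2.64, SE 0.79, adjusted p = 0.00976 in edgeR's quasi-likelihood test), in a fit that called 18.0% of its 28840 genes higher. The p27KO value of the same fit was 1.37 (SE 0.90, adjusted p = 0.316).

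Fgfrl1 was the gene of the 10 that fell. It encodes a receptor that binds FGFs but lacks the kinase domain (ENSMUSG00000008090, chr5:108692382-108706924, plus strand). It had 102, 90.0 and 104 CPM in WT neurospheres and 80.0, 58.7 and 56.1 CPM at 2 + 1 DIV. Neurospheres labelled p27KO had 107 and 106 CPM, and cells labelled p27KO had 70.4 and 65.3 CPM at 2 + 1 DIV. The stages did not overlap, and WT replicate 1 was the highest library at 2 + 1 DIV. The log2 fold change was -0.61 in WT (SE 0.13, adjusted p = 0.0019), a ratio of 0.654, and -0.67 in the libraries labelled p27KO (SE 0.16, adjusted p = 0.0046; edgeR's quasi-likelihood test), a ratio of 0.628.

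The ligand and the receptor inhibitor were not called in either genotype. Hbegf encodes heparin-binding EGF-like growth factor, a membrane-anchored ligand of EGFR and ERBB4 (ENSMUSG00000024486, chr18:36504927-36515805, minus strand). It had 32.0, 18.5 and 18.4 CPM in WT neurospheres and 24.9, 25.8 and 25.2 CPM at 2 + 1 DIV. The libraries labelled p27KO had 23.0 and 21.1 CPM in neurospheres and 29.6 and 26.4 CPM at 2 + 1 DIV. WT neurosphere replicate 1 stood above all WT libraries at 2 + 1 DIV, and the other two stood below them. The log2 fold change was 0.13 in WT (SE 0.20, 95% interval -0.31 to 0.57, adjusted p = 0.57) and 0.32 in the libraries labelled p27KO (SE 0.24, interval -0.21 to 0.86, adjusted p = 0.272; edgeR's quasi-likelihood test). Without WT neurosphere replicate 1, the values were 0.45 (adjusted p = 0.0044) and 0.32 (adjusted p = 0.0321) in edgeR's quasi-likelihood test, both past the threshold.

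Errfi1 encodes a cytoplasmic inhibitor of EGF receptor family kinases (ENSMUSG00000028967, chr4:150853919-150868892, plus strand). It had 13.4, 13.0 and 13.7 CPM in WT neurospheres and 15.3, 11.9 and 13.4 CPM at 2 + 1 DIV. With the p27KO label, values were 14.3 and 14.5 CPM in neurospheres and 11.5 and 12.1 CPM at 2 + 1 DIV. The WT stages overlapped and those labelled p27KO did not. The log2 fold change was 0.00 in WT (SE 0.11, 95% interval -0.24 to 0.24, adjusted p = 0.9912) and -0.32 in the libraries labelled p27KO (SE 0.13, interval -0.61 to -0.02, adjusted p = 0.0651; edgeR's quasi-likelihood test). The latter passed the threshold without WT replicate 1 at 2 + 1 DIV, at -0.30 with adjusted p = 0.0473 in edgeR's quasi-likelihood test.

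In WT, 3 of the 9 genes tested were higher at 2 + 1 DIV and 1 was lower, beside 33.5% higher and 33.9% lower of all genes tested. In the libraries labelled p27KO the counts were again 3 and 1, beside 27.5% and 30.2%.

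**Figure D2:**
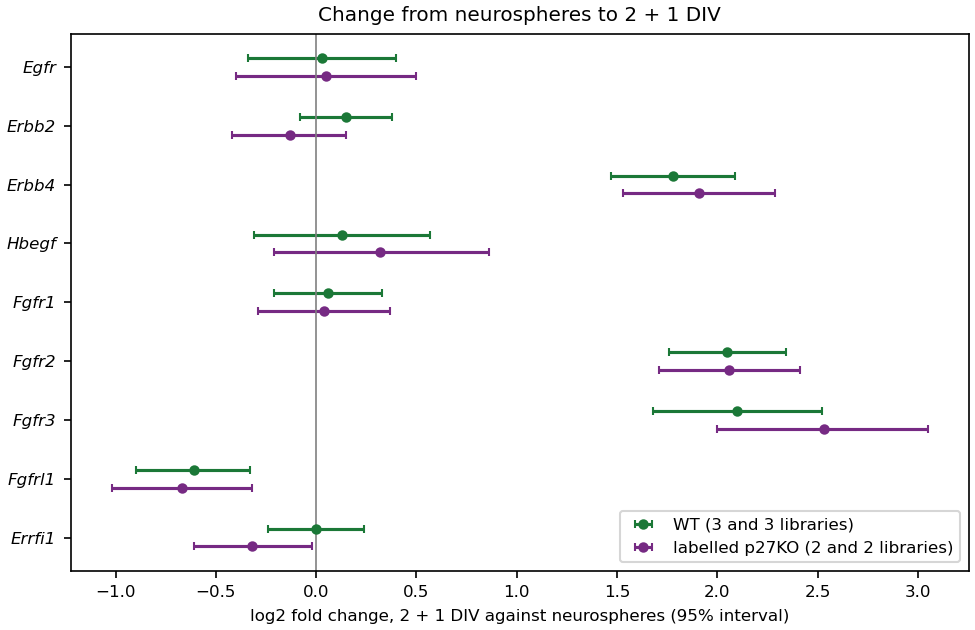
Log2 fold change from neurospheres to 2 + 1 DIV (horizontal axis) of the 9 genes tested, with points for the fitted value and bars for its 95% interval, in WT (green) and in the libraries labelled p27KO (purple). Intervals of Erbb4, Fgfr2 and Fgfr3 lie above 1, those of Fgfrl1 lie below 0, and those of both genotypes overlap for every gene.

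Levels of different genes were compared as CPM per kb of annotated exon, averaged over the libraries of a group with the SD. In WT neurospheres Egfr was the highest of the 10 at 55.1 ± 7.46 (n = 3), followed by Fgfrl1 at 35.4 ± 2.65 and Fgfr1 at 20.9 ± 1.30 CPM per kb. Fgfr3 at 6.81 ± 1.61 and Erbb4 at 6.31 ± 0.676 CPM per kb came next and differed by less than their SD. Hbegf at 4.75 ± 1.62 did not differ beyond its SD from Erbb2 at 4.64 ± 0.243 or Errfi1 at 3.73 ± 0.091 CPM per kb. Fgfr2 was at 1.94 ± 0.296 and Erbb3 at 0.0121 ± 0.0115 CPM per kb.

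At 2 + 1 DIV in WT, Egfr remained the highest at 56.6 ± 9.96 CPM per kb (n = 3). Fgfr3 stood at 29.3 ± 3.87, Fgfrl1 at 23.3 ± 4.70, Fgfr1 at 21.9 ± 2.35 and Erbb4 at 21.8 ± 2.36 CPM per kb, and neighbours in this order had overlapping SDs. Fgfr2 reached 8.11 ± 0.759, above Hbegf at 5.23 ± 0.094, Erbb2 at 5.19 ± 0.261 and Errfi1 at 3.77 ± 0.477 CPM per kb. Exon lengths join all annotated transcripts, and splice forms of the FGF receptors, which differ in ligand preference, cannot be told apart in counts per gene.

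The 3 FGF receptor kinases summed to 29.6 ± 3.12 CPM per kb in WT neurospheres and 59.3 ± 4.07 at 2 + 1 DIV (SD, n = 3). Fgfr1 made up 70.7% ± 3.56 of that sum in neurospheres and 37.0% ± 3.29 at 2 + 1 DIV, while Fgfr3 went from 22.8% ± 3.26 to 49.3% ± 4.77 and Fgfr2 from 6.56% ± 0.545 to 13.7% ± 1.63. In the libraries labelled p27KO (n = 2), Fgfr1 made up 77.8% ± 0.672 and 40.7% ± 3.10, and Fgfr3 14.4% ± 0.960 and 42.6% ± 0.646. Fgfr1 thus held the largest share in all 5 neurosphere libraries. At 2 + 1 DIV Fgfr3 held it in all 3 WT libraries, and in the libraries labelled p27KO the shares of Fgfr1 and Fgfr3 had overlapping SDs.

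Egfr, Erbb2 and Erbb4 summed to 66.0 ± 7.59 CPM per kb in WT neurospheres and 83.6 ± 10.4 at 2 + 1 DIV (SD, n = 3). The share of Egfr was 83.3% ± 2.10 in neurospheres and 67.4% ± 4.15 at 2 + 1 DIV, and that of Erbb4 was 9.64% ± 1.51 and 26.3% ± 3.31. In the libraries labelled p27KO, Egfr made up 82.9% ± 3.79 and 67.8% ± 2.31 and Erbb4 9.25% ± 3.78 and 26.5% ± 2.13 (n = 2). These shares restate the same counts as the fold changes and were not tested.

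**Figure D3:**
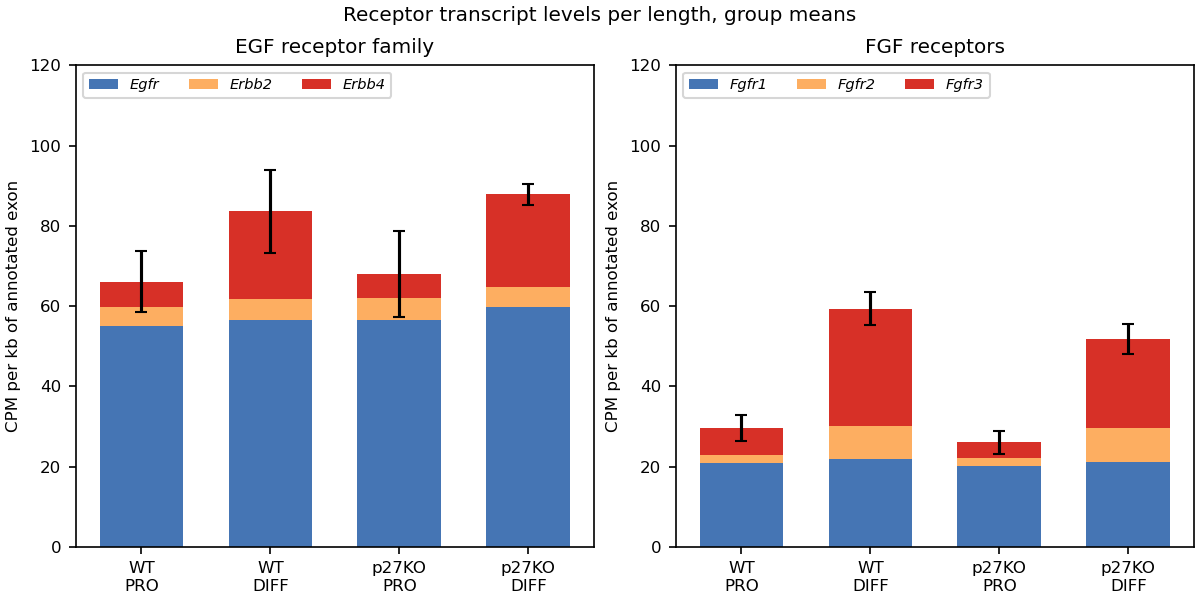
Group mean CPM per kb of annotated exon (vertical axes, from 0), stacked by receptor, with the SD of the sum over libraries (n = 3 in WT, n = 2 in p27KO), for the EGF receptor family on the left and the FGF receptors on the right. From PRO to DIFF the Egfr and Fgfr1 segments keep their height while those of Erbb4, Fgfr2 and Fgfr3 grow.

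Whether the stage changes depended on the genotype label was asked with the interaction, the change in the libraries labelled p27KO minus that in WT. None of the 9 genes was called by edgeR or DESeq2, and edgeR called 0.389% of all genes tested. At an unadjusted p under 0.05 edgeR gave none of the 9 and 554 of all 12859 genes. The largest difference was that of Fgfr3, at 0.43 on the log2 scale (SE 0.29, 95% interval -0.22 to 1.08, adjusted p = 0.9997 in edgeR's quasi-likelihood test). The intervals of the other 8 genes lay between -0.70 and 0.88.

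Between genotypes at the same stage, none of the 9 genes was called, in neurospheres beside 0.0156% and at 2 + 1 DIV beside 2.04% of all genes tested. At an unadjusted p under 0.05 there were 1 and 0, beside 603 and 1901 of all 12859 genes. Fgfr3 was the gene with the smallest p in neurospheres. All its libraries labelled p27KO were below all WT libraries of the same stage. The log2 difference was -0.83 in neurospheres (SE 0.21, 95% interval -1.30 to -0.35, unadjusted p = 0.0034, adjusted p = 0.684) and -0.40 at 2 + 1 DIV (SE 0.20, interval -0.85 to 0.06, adjusted p = 0.399) in edgeR's quasi-likelihood test. DESeq2 gave -0.82 in neurospheres with adjusted p = 0.0344, in a fit that called 0.311% of all genes. With sex coinciding with the genotype label, this difference has no single source that these libraries can tell apart.

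Genes of the EGF and FGF ligand families were mostly low. Those that passed the filter and were called were higher at 2 + 1 DIV. Of 11 EGF family ligands, Hbegf included, 6 were tested. In WT 2 were higher and none lower, beside 33.5% and 33.9% of all genes tested. The count of 2 lies near the share of all genes that were higher. The median log2 fold change of the 6 in WT was 0.30, beside 0.00 over all genes. In the libraries labelled p27KO 1 was higher and none lower, beside 27.5% and 30.2% of all genes tested. Nrg1, which encodes a neuregulin ligand of ERBB3 and ERBB4, went from 3.65 ± 0.863 to 8.18 ± 2.38 CPM in WT (log2 fold change 1.16, SE 0.25, adjusted p = 0.0022 in edgeR's quasi-likelihood test), and rose by 1.76 on the log2 scale in the libraries labelled p27KO. Egf itself rose from 1.69 ± 0.25 to 3.60 ± 0.31 CPM in WT (log2 fold change 1.08), but its change of 0.63 in the libraries labelled p27KO had adjusted p = 0.112 in edgeR's quasi-likelihood test. Tgfa, Nrg2 and Nrg4 were not called in WT, at log2 fold changes of -0.37, 0.46 and -0.27. Areg, the gene of amphiregulin, was not tested and had 0.889 ± 0.242 CPM in WT neurospheres and 0.044 ± 0.00608 CPM at 2 + 1 DIV. The filter on low values thus bears on the direction of the calls. Without it, 2 EGF family ligands were called lower in both genotypes. Without WT neurosphere replicate 1, 3 EGF family ligands, Hbegf among them, were higher in WT.

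Of 22 FGF family genes, 6 passed the filter and 5 of these were higher in WT, beside 33.5% of all genes tested. Their median log2 fold change was 1.05. Fgf1 went from 26.3 ± 10.8 to 63.5 ± 14.2 CPM (log2 1.26, SE 0.27) and Fgf2, the basic FGF used for neural cultures, from 5.94 ± 1.43 to 14.6 ± 3.12 CPM (log2 1.29, SE 0.23). The other three called, Fgf11 (2.21), Fgf14 (0.85) and Fgf12 (0.57), belong with Fgf13, which was not called at 0.15, to the FGF homologous factors, which stay inside the cell and are not receptor ligands. In the libraries labelled p27KO 4 of the 6 were higher, beside 27.5% of all genes tested, and Fgf1, at 0.57, was not called.

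Of 20 co-receptors, FGF-binding proteins and heparan sulfate carriers, 15 were tested. In WT 9 were higher and 3 lower, beside 33.5% and 33.9% of all genes tested. With the p27KO label 8 were higher and 3 lower, beside 27.5% and 30.2%. The largest WT rises were those of Flrt1 (log2 fold change 3.06), the glypican gene Gpc4 (2.66) and the FGF-binding protein gene Fgfbp3 (2.19). The syndecan genes Sdc1 (-2.83) and Sdc3 (-1.37) and the glypican gene Gpc1 (-0.51) fell. The genes of the proteases that release EGF family ligands, and their partners, had 1 higher and 3 lower of 8 tested in both genotypes. The main sheddase genes Adam10 and Adam17 were not called in WT, at -0.11 and -0.00, whereas Adam12 fell from 368 to 24.1 CPM (log2 -3.94) and Adam19 from 127 to 11.6 CPM (log2 -3.47). Rhbdf1, a partner of ADAM17, fell by 1.08 on the log2 scale and Adam9 rose by 0.33.

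Attenuators of the receptors, Errfi1 among them, had 5 higher and 5 lower of 14 tested in WT and a median of 0.01. Over all genes tested, 33.5% were higher and 33.9% lower in WT, and the counts of the attenuators lie near these shares. Lrig3 (log2 fold change 1.69), the FGF receptor inhibitor Il17rd (0.92) and Lrig2 (0.88) rose most, and Socs5 (-1.47), Sh3gl2 (-0.95) and the phosphatase gene Ptpn1 (-0.65) fell most. Without WT neurosphere replicate 2, WT neurosphere replicate 3 or WT replicate 1 at 2 + 1 DIV, 3 were lower instead of 5. Adaptors and the Ras-ERK cascade had 7 higher and 9 lower of 28 tested in WT, with a median of -0.03. The adaptor genes Shc2 (1.01) and Frs2 (0.80), the latter for FGF receptors, and the kinase gene Braf (0.82) rose. Shc4 (-2.28), the ERK target kinase gene Rps6ka1 (-1.76) and Shc3 (-1.74) fell.

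The ERK feedback genes, which ERK signalling induces and most of which restrain it, fell as a group while Egfr and Fgfr1 were not called. Of 12 tested, 11 were lower and none higher in both genotypes, with a median log2 fold change of -2.83 in WT. Of all genes tested, 33.9% were lower in WT and 30.2% with the p27KO label. Spry4 (-5.46), Dusp6 (-4.54) and Spry1 (-4.32) fell most, and Spred1 was not called at -0.28. With WT replicates paired by a block within genotype, all 12 were lower, Spred1 at -0.29 (SE 0.08, adjusted p = 0.0169 in edgeR's quasi-likelihood test). In WT, 16 of 24 other receptor tyrosine kinase genes tested were higher and 3 lower, beside 33.5% and 33.9% of all genes. The median of the 24 was 0.78. Epha5 (3.09), Axl (2.79) and Kit (2.79) rose most, and Flt1 (-3.71), Ror2 (-2.19) and Ryk (-0.18) fell, although Ryk was not called with the block (adjusted p = 0.063 in edgeR's quasi-likelihood test).

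**Figure D4:**
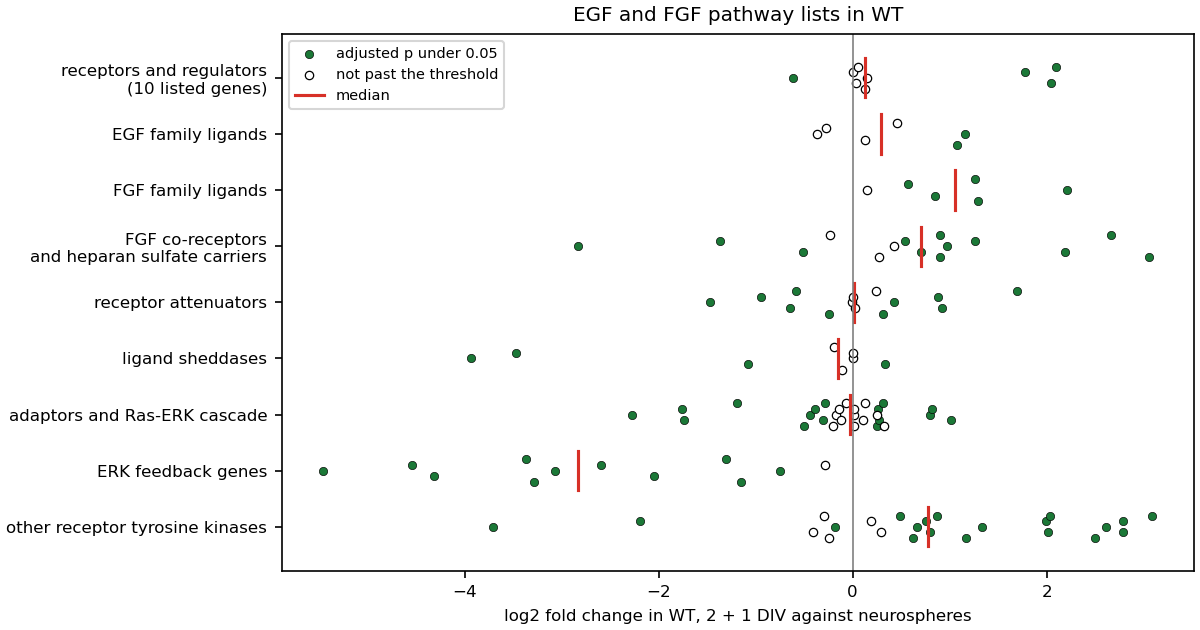
Log2 fold change in WT from neurospheres to 2 + 1 DIV (horizontal axis) of each tested gene of 9 lists (rows), green where called and white where not, with a red line at the list's median. The 12 ERK feedback genes lie at or below -0.28, with a median of -2.83, while the lists of attenuators and cascade genes are centred near 0.

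The genes whose pattern over the 10 libraries was most like that of a receptor were found by the root mean square (RMS) difference of log2 CPM centred on each gene's mean, among the 9740 genes that averaged 10 CPM or more. For Erbb4 they were Kctd5, Arhgef26 and Dlgap1 at 0.09 to 0.11, for Fgfr2 Slc38a6, Srgap3 and Ncan at 0.11 to 0.14, and for Fgfrl1 Pknox1, Tbc1d31 and Pdgfa, the gene of a PDGF ligand, at 0.09 to 0.10. Fgfr3 had no neighbour as near, with Pdk2 at 0.25 and Pdzrn3 and the sodium pump subunit gene Atp1b2 at 0.28. For Egfr they were Usp2, Tmem245 and Dele1 at 0.11 to 0.12, and for Fgfr1 Iscu, Depdc5 and Idh3g at 0.07 to 0.09. For Hbegf they were Nek6, Mfap3l and Zfp454 at 0.14 to 0.15, and for Errfi1 Ogfr, Ints4 and Nelfb at 0.06 to 0.07. For a gene that was not called, such likeness mostly says that both genes were nearly level.

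Marker lists of neural cell types differed in how they moved with the stage in WT. The summed astrocyte and neuroblast markers rose, the oligodendroglial sum fell and the stem cell sums of the stages overlapped. Of all genes tested, 33.5% were higher and 33.9% lower in WT. The 8 neural stem cell markers summed to between 6740 and 7570 CPM in WT neurospheres and between 6590 and 8130 CPM at 2 + 1 DIV, although Nes, which encodes nestin, fell from 1730 ± 254 to 195 ± 40.9 CPM and Vim from 2660 ± 155 to 1760 ± 70.9 CPM. The 7 astrocyte markers summed to 866 to 1070 CPM in WT neurospheres and 2690 to 3220 CPM at 2 + 1 DIV, with 5 higher and none lower, and Gfap went from 0.613 ± 0.408 to 111 ± 31.1 CPM and Aqp4 from 2.78 ± 1.74 to 238 ± 70.0 CPM. The 7 neuroblast markers summed to 20.6 to 32.1 and 79.9 to 142 CPM, with 3 higher and none lower of 5 tested. Nrxn3, at 19.0 ± 3.71 and 61.7 ± 6.82 CPM, made up the largest part of both sums. Dcx was at 1.43 ± 1.54 and 35.2 ± 20.7 CPM and Tubb3 at 3.37 ± 0.852 and 8.29 ± 3.13 CPM. Dlx1 and Dlx2 were not called, at log2 fold changes of -0.63 and 0.75, and Stmn2 and Sp8 did not pass the filter. The 10 oligodendroglial markers summed to 1230 to 1630 and 760 to 957 CPM, with 2 higher and 2 lower. Olig1, at 1250 ± 199 and 656 ± 61.7 CPM, and Cspg4, at 106 ± 43.6 and 31.8 ± 10.4 CPM, fell. Pdgfra was at 14.2 ± 8.75 and 58.2 ± 25.5 CPM, and Sox10 stayed at or below 0.509 CPM. With WT replicates paired by a block, the call of Pdgfra was lost (adjusted p = 0.0873 in edgeR's quasi-likelihood test). The libraries labelled p27KO summed to 987 to 1230 and 3080 to 3160 CPM of astrocyte markers and 23.0 to 30.1 and 80.2 to 112 CPM of neuroblast markers. Their stem cell markers summed to 6410 to 7100 and 7720 to 7810 CPM. Their oligodendroglial markers summed to 1280 to 1540 and 650 to 696 CPM. In these libraries 3 neuroblast markers were higher and 1 was lower, beside 27.5% and 30.2% of all genes tested. The lower one was Dlx1 (log2 fold change -1.27, adjusted p = 0.0111 in edgeR's quasi-likelihood test). The part of cell composition in the changes of the receptors was not tested.

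Microglial, endothelial and fibroblast lists summed to at most 1.72 CPM in any library, with the endothelial gene Cdh5 at 0 in all 10, Pecam1 at most 0.443 CPM, Aif1 and Cx3cr1 at most 0.135 CPM, Dcn at most 0.0509 CPM and Col1a1 at most 1.27 CPM. The mural list summed to 1.87 to 2.76 CPM in WT neurospheres and 29.0 to 68.7 CPM at 2 + 1 DIV, most of it Acta2, while Rgs5 was at 0.385 ± 0.233 and 0.426 ± 0.220 CPM and Pdgfrb at 0.176 ± 0.114 and 2.98 ± 0.765 CPM. The ependymal list summed to 14.2 to 20.2 and 87.7 to 107 CPM, nearly all of it Foxj1, with Tmem212 at 0 in all WT libraries. Dnah5, which was not tested, was at 0.249 ± 0.103 and 3.49 ± 1.25 CPM in WT. Ccdc153 was at most 0.305 CPM in WT.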

How the data were processed

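RNA-seq of polyA RNA was analysed in 10 libraries. The authors mapped the reads with STAR against Ensembl mouse transcripts and deposited RSEM estimated counts per gene as whole numbers, without normalization. The submitters' notes name GRCm38. A gene was dropped when it had under 1 CPM in 4 or more libraries, which also removes genes present at only 1 stage. After TMM scaling, the 4 groups were fitted in edgeR 4.0.16 (robust quasi-likelihood test, two-sided, Benjamini-Hochberg over 12859 genes, threshold 0.05) under R 4.3.3. Positions come from GENCODE M21 and promoters from RefSeq. The members and lists were chosen with earlier results of these data known.

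Named genes outside the members were, per pathway list, up to 3 largest rises and falls called in WT with a mean of at least 1 CPM, ligands with at least 1 CPM in a group, the 3 genes most like each member, the first 2 markers of each cell type, and Fgfr4. Some planned results for single genes and 1 marker list are not reported here. Adam10, Adam17, Spred1, Olig1, Cspg4, Acta2, Cdkn1b, Xist and Ddx3y were chosen after their values were seen. So were Nrxn3, Dlx1, Dlx2, Stmn2, Sp8, Dnah5 and Ccdc153. Alternatives were DESeq2 1.42.0, other scalings and filters, a fit of only the groups compared, thinned counts, a replicate block and leaving out each library.

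Same-numbered WT libraries deviated together (correlations 0.248, 0.301 and 0.395), although no label says what the numbers mark. The main fit, which gave the reported tests unless a block is named, did not pair them. Pairing entered only through the replicate block among the alternatives. The p27KO value was -0.138. With 2 libraries per group the deviations from the group mean are exact opposites, so that it cannot show whether those libraries are paired. No 2 libraries of a group agreed within sampling noise (chi-square per gene 14.8 to 64.5). In counts simulated for 12859 genes, 247 of 300 genes changed by 1 on the log2 scale were recovered in WT and 202 of 300 in p27KO, with 11 and 10 false calls. In the interaction, 285 of 500 genes changed by 1 or 2 were recovered, with 20 false calls. Far fewer genes were changed between stages in the simulation than were called in these data, so that its recovery need not hold for them.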

Additional observations from a re-analysis of the deposited data

How the results depend on the processing

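Calls of Erbb4, Fgfr2, Fgfr3 and Fgfrl1 between stages held in both genotypes under every alternative run, with 4 of the 10 genes called throughout, or 5 where Hbegf, Errfi1 or Erbb3 was added. Leaving out each library in turn gave log2 fold changes of 1.70 to 1.85 for Erbb4, 1.94 to 2.16 for Fgfr2, 1.91 to 2.21 for Fgfr3 and -0.77 to -0.51 for Fgfrl1 in WT. Errfi1 was called in the libraries labelled p27KO with the other filter and with thinned counts, at -0.35 in both (adjusted p = 0.044 and 0.0456 in edgeR's quasi-likelihood test). With DESeq2, 1 gene, Fgfr3, was called between genotypes in neurospheres. A gene present at only 1 stage fails the filter, groups of 2 libraries limit each p27KO value, and with WT libraries left out the remaining ones are assumed to vary like the other groups. For changes of sign the cause was not tested.

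Sign changes were those of differences that were not called. In the WT stage change, no filter gave -0.049 for Egfr, -0.019 for Fgfr1 and -0.079 for Errfi1, and the other filter gave -0.006 for Egfr and -0.038 for Errfi1. In the libraries labelled p27KO, no filter gave -0.018 for Egfr and -0.027 for Fgfr1. Thinning gave 0.017 for Fgfr1 in the interaction. Leaving out each library gave, in the WT stage change, -0.12 to 0.17 for Egfr, -0.043 to 0.15 for Fgfr1, -0.0028 to 0.45 for Hbegf and -0.075 to 0.073 for Errfi1. In the libraries labelled p27KO it gave -0.16 to 0.30 for Egfr, -0.30 to 0.059 for Erbb2 and -0.13 to 0.19 for Fgfr1. In the interaction it gave -0.20 to 0.26 for Egfr, -0.092 to 0.40 for Erbb4, -0.19 to 0.13 for Fgfr1, -0.10 to 0.12 for Fgfr2, -0.16 to 0.11 for Fgfrl1 and -0.12 to 0.33 for Hbegf. Between genotypes in neurospheres it gave -0.17 to 0.28 for Egfr, -0.30 to 0.20 for Erbb4, -0.14 to 0.099 for Fgfr1, -0.017 to 0.20 for Fgfr2 and -0.17 to 0.29 for Hbegf, and at 2 + 1 DIV -0.040 to 0.24 for Egfr, -0.21 to 0.11 for Fgfr1 and -0.023 to 0.25 for Fgfrl1.

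With the replicate block, which pairs libraries of the same number, the same number of the 10 genes was called in every comparison. Set within genotype, it changed the WT calls of 9 genes of the lists, Spred1, Ryk and Pdgfra among them. The block gave -0.00049 for Errfi1 in the WT stage change, -0.0042 where it was set within genotype, and -0.0044 with the p27KO numbers crossed, and 0.048 for Erbb4 between genotypes in neurospheres. Crossing the p27KO numbers was chosen after seeing the data and also left 4 of the 10 genes called in each stage change.

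Over all genes, the interaction called 50, but 157 with DESeq2, 79 with no filter, 29 with the replicate block within genotype and 0 to 89 without 1 library. Genotypes in neurospheres differed in 2 genes, but in 40 with DESeq2, 14 with no filter, 9 with the other filter, 1 with only the groups compared, 1 with the replicate block and 1 to 4 without 1 library. At 2 + 1 DIV they differed in 262, but in 631 with DESeq2, 39 with only the groups compared and 99 to 282 without 1 library. With no filter, 2 EGF family ligands were lower in both genotypes instead of none, 3 cascade genes were higher in WT instead of 7, and 5 other receptor tyrosine kinases were lower in WT instead of 3.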
